A study of Mus musculus with 5 samples.

Results

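The 10 genes described here encode nuclear receptors that sense or control metabolism in the liver: the retinoid X receptors Rxra and Rxrb, the fatty acid receptors Ppara and Ppard, the oxysterol receptor Nr1h3 (LXRα), the bile acid receptor Nr1h4 (FXR), the xenobiotic receptor Nr1i3 (CAR), the repressor Nr0b2 (SHP), Nr5a2 (LRH-1) and the thyroid hormone receptor Thrb. They were chosen by symbol, as the entries whose gene column names 1 of them, and they are 10 of the 22714 genes listed in at least 1 of 5 tables of miRNA-target interactions from mouse liver. All 10 symbols were found. Each table came from Ago HITS-CLIP, in which tissue is irradiated with ultraviolet light to tie Ago proteins to the RNA beneath them, the complexes are pulled out with antibodies, and the bound RNA is sequenced. Livers of C57BL/6 mice were taken at 3 embryonic stages named by their day (e12.5, e15.5, e18.5), at postnatal day 7 (P7) and at 6 to 8 weeks of age (adult). All were irradiated 3 times at 254 nm with 0.2 J/cm2. Antibodies to Ago2 were used at every stage, and Ago1 antibodies were also used at P7 and in the adult, so that the antibody and the time after birth cannot be told apart. There was 1 table per stage, called a library here, with no labelled replicates, so no difference between stages could be tested and every one is a difference between libraries. The study's methods speak of biological replicates, and the 3 embryonic tables each hold 2 lists whose nature is not stated, so the lists were added here and not treated as replicates.

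Nuclear receptors are transcription factors that small lipid-like ligands switch on or off. Most of the metabolic ones bind DNA as a pair with a retinoid X receptor, so the RXR proteins are shared partners of the PPAR, LXR, FXR, CAR and thyroid hormone receptors. In the liver they set fatty acid oxidation, the uptake and export of sterols, the synthesis and transport of bile acids, and the breakdown of drugs. A miRNA guides Ago to an mRNA by pairing its seed, the bases near its 5′ end, with a site that is most often in the 3′UTR.

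The deposited entries are seed matches within clusters, which are stretches of overlapping reads. The sites set out here are matches to miR-122-5p, the main miRNA of hepatocytes, and 1 match to miR-181a-5p in Nr1h4. The latter was listed in the adult library and lies in a cluster which overlaps clusters of other libraries. All are shown in windows of 30 bases of the gene's strand, read from GRCm38 (mm10). The bases that match the seed, and the A opposite the first base of the miRNA where there is one, are in capitals.
Rxra 3′UTR, match at chr2:27760211-27760217: gccctgagatatCACTCCAagcaggattct
Rxra CDS, match at chr2:27737508-27737514: cccatgggcccgCACTCCAtgtcggtaccc
Ppard 3′UTR, match at chr17:28299954-28299961: gcctactcacaACACTCCAgacacgtggcc
Ppara intron, match at chr15:85799011-85799017: gtcacattgtcACACTCCcgaaaagcgtaa
Nr1h4 CDS, match to miR-181a-5p at chr10:89483381-89483388: ggggatgttggcTGAATGTAtgtatacagg
The sequence of miR-181a-5p in RefSeq is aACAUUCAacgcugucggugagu, with its seed in capitals. The Rxra CDS, Ppara intron and Nr1h4 CDS sites were chosen after their values were seen. The sites differ in how far they are conserved: the deposited score, from 0 to 1, is 0.001 for the Rxra 3′UTR site, 0.001 or less for the Ppard site and for the Ppara intron site, 0.859 for the Rxra CDS site and 1.0 for the Nr1h4 site.

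Over all regions the 10 genes had 169, 20, 52, 173 and 131 clusters in the 5 libraries in order of age. Clusters in a 3′UTR, CDS or 5′UTR, called mRNA clusters here, numbered 48, 12, 39, 111 and 78. As a share of all mRNA clusters of the library this was 0.0505% and 0.0266% in the youngest 2 libraries, with Wilson 95% intervals of 0.0381 to 0.0669 and 0.0152 to 0.0465. It was 0.0918% (0.0672 to 0.126) at e18.5, 0.139% (0.115 to 0.167) at P7 and 0.146% (0.117 to 0.182) in adult liver. The intervals of the later 3 libraries lie above those of the first 2. All intervals here cover counting error only, since reads copied by PCR are not independent molecules. The receptors with a cluster numbered 7, 6 and 7 in the embryonic libraries and 10 in both later ones: Nr1i3 and Nr0b2 were listed only at P7 and in the adult, and Nr1h4 only from e18.5 on. The e12.5 library is the largest of the 5 by summed cluster reads, with 44867326 against 13008703 to 24885228 in the others. Nr1i3, Nr0b2 and Nr1h4 were not listed in it. Such sums are not sequencing depth, and hepatocyte markers were lower at e12.5 than in the adult, as given below.

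**Figure D1:**
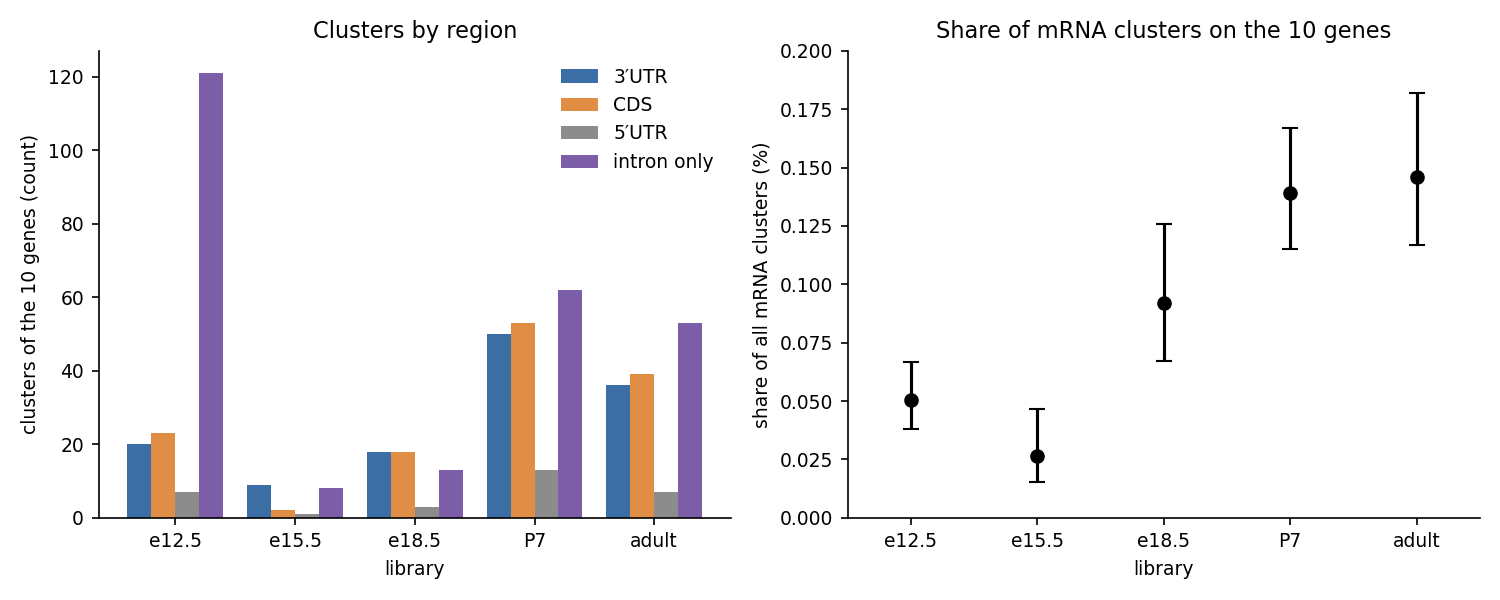
Left, number of clusters of the 10 receptor genes by annotated region in each library, where a cluster can count in more than 1 mRNA region and intron only means in no mRNA region. Right, share of all mRNA clusters of a library that lie on the 10 genes, with Wilson 95% intervals; the 121 clusters confined to introns at e12.5 stand above every other bar, and the share reaches 0.139% at P7 and 0.146% in the adult.

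The composition of the libraries moved with stage. Hepatocyte markers, 8 of 8 listed at every stage, summed to 675 mRNA cluster reads per 1000000 summed cluster reads (RPM) at e12.5 and 9540 in the adult. Erythroid markers summed to between 33900 and 48600 in the embryonic libraries, to 17400 at P7 and to 811 in the adult, where 4 of the 8 were listed. Endothelial markers summed to 14.6 RPM at e12.5, 203 at P7 and 157 in the adult, stellate cell and fibroblast markers to 46.6, 176 and 57.4, and leukocyte markers to 33.7, 134 and 120, with a highest value of 336 at e18.5. Biliary markers, of which 5 of 5 were not listed at e15.5, summed to at most 20.1. Their part in the values of the receptors was not tested, and more hepatocytes and more Ago-bound RNA per hepatocyte cannot be told apart. The share of miR-122-5p among the miRNA reads was 1.44%, 4.33%, 9.2%, 12.3% and 11.2% in order of age.

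The reads of a cluster are the highest read number deposited for it. They were summed over the mRNA clusters of a gene and given in RPM, which is the unit of every level below. Values without a stage run in order of age from e12.5 to adult. The lowest read number listed is 5, which makes 0.111 to 0.384 RPM. The 10 genes together had 57.7, 22.5, 192, 339 and 148 RPM, so that P7 was the highest library. Rxra alone held 28.1%, 16.4%, 60.4%, 74% and 58.9% of these reads.

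**Figure D2:**
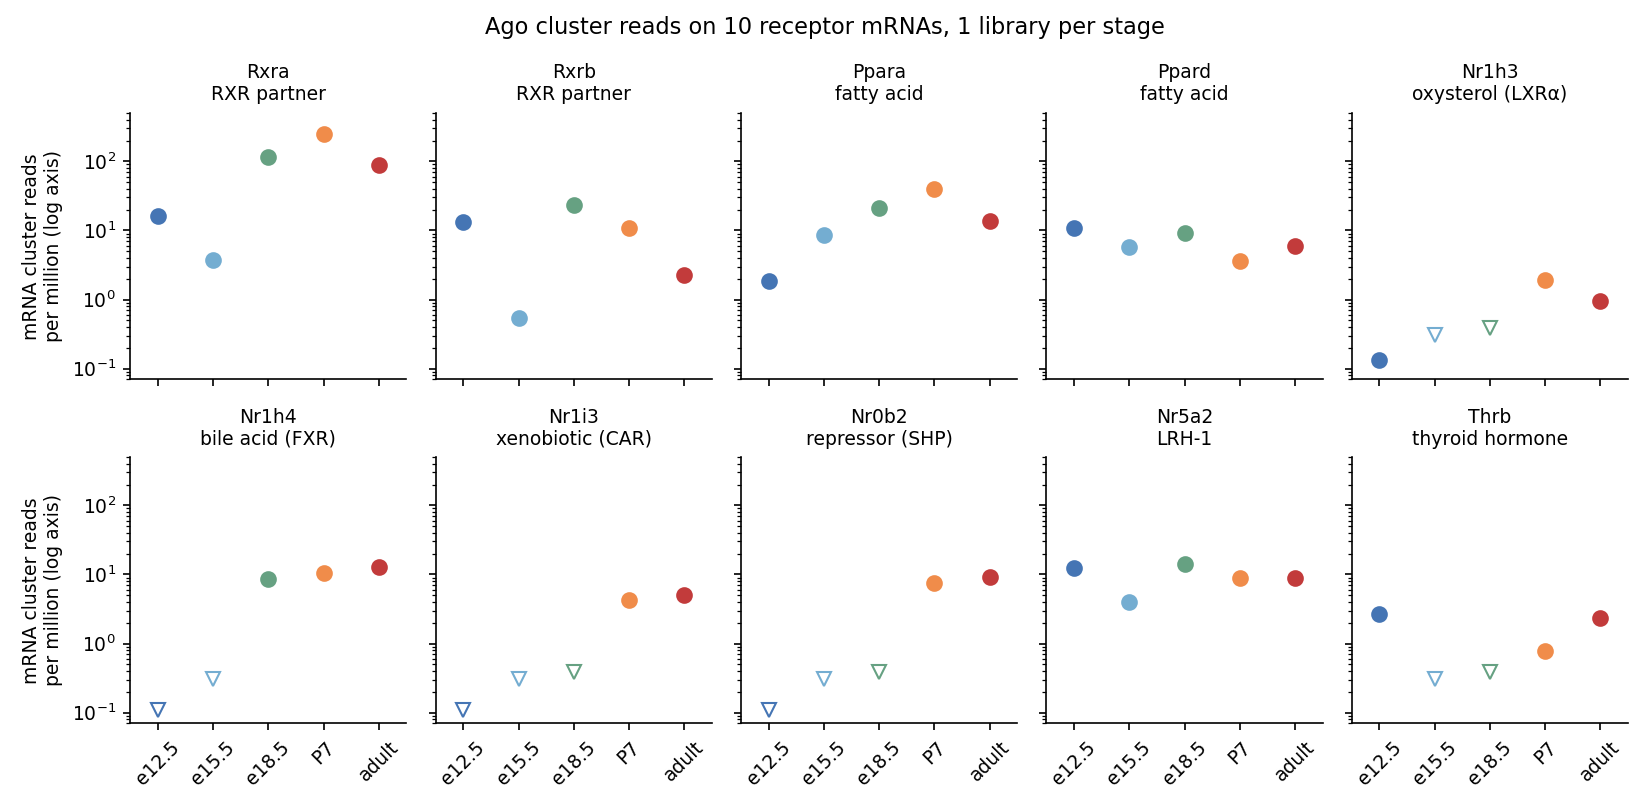
Summed mRNA cluster reads in RPM (log axis) of each receptor gene in the 5 libraries, 1 point per library. Open triangles mark libraries in which no mRNA cluster of the gene was listed and stand at the 5-read limit of that library; Nr1i3 and Nr0b2 have points only at P7 and in the adult.

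Rxra, the main RXR of the liver, had 726, 61, 1510, 4141 and 2173 reads in 12, 2, 13, 34 and 25 mRNA clusters. In RPM this was 16.2, 3.69, 116, 251 and 87.3. The 3 later libraries were all above both early ones, and P7 was the highest. At P7 the gene stood above 99.6% of all genes with an mRNA cluster, in the adult above 98.2% and at e12.5 above 78.5%, a ranking that is not corrected for mRNA length.

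Most of this came from 1 cluster. It spans chr2:27760190-27760267 in the last exon of Rxra, exon 10 of 10, and its first site lies 502 bases after the stop codon. Its reads were 48, 7, 901, 3286 and 1150, or 1.07, 0.424, 69.3, 199 and 46.2 RPM. It held 6.61% and 11.5% of the mRNA cluster reads of Rxra in the first libraries, and 59.7%, 79.4% and 52.9% in the 3 later ones. The cluster holds the miR-122-5p 3′UTR match shown above, 522 bases after the stop codon, which is listed in all 5 libraries, and it was the only 3′UTR site of an abundant miRNA (the 20 highest of a library) in the 10 genes that was listed in 3 or more. Over the libraries the cluster holds matches to 24 miRNAs, among them miR-144-5p, miR-370-3p and miR-18a-5p, so the tables do not show which miRNA held Ago there.

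The rest of Rxra had the same order of libraries but a smaller range. Without that cluster its mRNA clusters had 678, 54, 609, 855 and 1023 reads, or 15.1, 3.27, 46.8, 51.8 and 41.1 RPM, and so lay between 41.1 and 51.8 in the 3 later libraries while the cluster itself ranged from 46.2 to 199. Among the 3′UTR clusters of all genes the cluster ranked 17 of 29603 at P7, 52 of 16150 at e18.5 and 41 of 15914 in the adult, but 14035 of 39452 at e12.5 and 17269 of 18219 at e15.5. Among 3′UTR clusters with a miR-122-5p match it ranked 5 of 785 at P7, 9 of 355 at e18.5 and 11 of 592 in the adult, and 225 of 236 at e15.5, while at e12.5 its 48 reads were near the median of such clusters, 40.5.

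**Figure D3:**
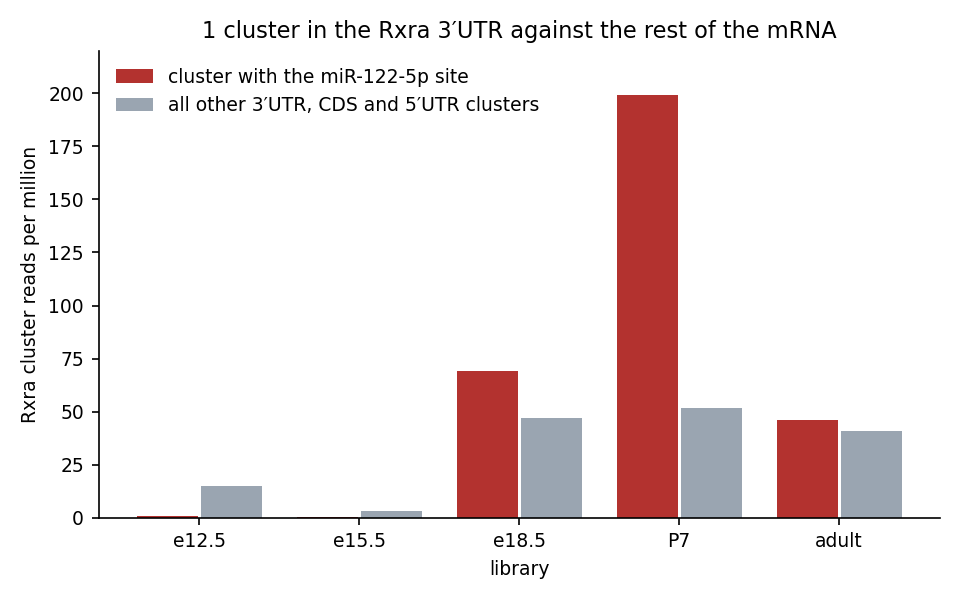
RPM of the Rxra 3′UTR cluster with the miR-122-5p match (red) and of all other mRNA clusters of Rxra (grey) in each library. The red bar is at 1.07 at e12.5, at 199 at P7 and at 46.2 in the adult, while the grey bar lies between 41.1 and 51.8 in the 3 later libraries.

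Other clusters of Rxra recurred at lower levels, and those named here, like the recurring clusters of the other genes below, were chosen after their values were seen. Of its 51 separate mRNA loci, which are clusters joined where they overlap between libraries, 31 were listed in 1 library, 10 in 2, 7 in 3, 2 in 4 and 1, the cluster above, in all 5. The CDS cluster with the other miR-122-5p match, in exon 2, was not listed at e12.5 or e15.5 and had 7 reads at e18.5, 16 at P7 and 221 in the adult, so unlike the 3′UTR cluster it was highest in the adult. A 5′UTR cluster in exon 1 had 15 reads at P7 and 43 in the adult, with matches to the miR-15/16 family in both. At e18.5 a cluster of 74 reads at its edge had a match to miR-3072-3p alone.

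**Figure D4:**
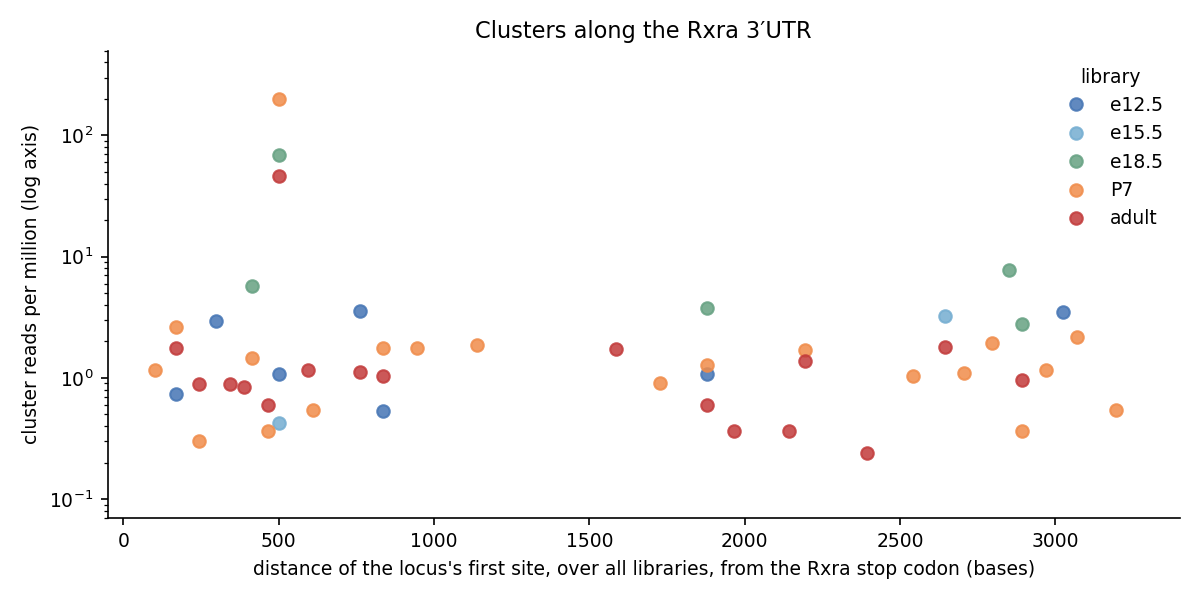
Clusters along the Rxra 3′UTR, as the distance in bases from the stop codon to the first site of the locus over all libraries, against the RPM in each library (log axis), coloured by library. The column of 5 points at 502 bases is the cluster with the miR-122-5p match, and its e18.5, P7 and adult points, at 69.3, 199 and 46.2, stand above all others.

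Rxrb, the more widely expressed partner, was lower in the adult than at e12.5, where Rxra was higher in the adult. It had 600, 9, 308, 180 and 57 mRNA cluster reads, or 13.4, 0.545, 23.7, 10.9 and 2.29 RPM. Its cluster of most reads, not scaled by library, with 184 reads, was a 3′UTR cluster at chr17:34038233-34038266 that was listed only at e18.5 and has matches to miR-7a-5p, miR-218-5p and miR-150-5p. In the adult no 3′UTR cluster of Rxrb was listed, and 4 of its 5 mRNA clusters were in the CDS. A CDS cluster in exon 5, at chr17:34035733-34035766, recurred in 4 libraries with 27, 108, 32 and 9 reads at e12.5, e18.5, P7 and in the adult.

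Ppara, which switches on fatty acid oxidation in the fasting liver, had 84, 140, 270, 655 and 341 mRNA cluster reads in the 5 libraries in order of age. In RPM this was 1.87, 8.47, 20.8, 39.7 and 13.7, so that each library up to P7 was above the one before it. Its mRNA cluster of most reads held 81 reads at e18.5 and 69 at P7 in the CDS of exon 3 (chr15:85777716-85777748), and its reads were spread over 37 loci with no dominant one. A 3′UTR locus at chr15:85801818-85801912 was listed at e15.5, P7 and in the adult with 39, 41 and 65 reads. The 65 is a sum over separate clusters, of which the highest had 44. The locus holds a match to miR-21a-5p at P7 and to miR-223-3p at e15.5 and P7, and in the adult to neither.

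The cluster of Ppara with most reads lay outside its mRNA. An intronic cluster with the miR-122-5p match shown above was not listed in any embryonic library and had 63 reads at P7 and 1024 in the adult, or 3.82 and 41.1 RPM, against 13.7 for all mRNA clusters of the gene in the adult. It ranked 109 of 12327 clusters confined to introns in the adult, and 3 of the 1203 of these with a miR-122-5p match. At P7 it ranked 87 of 1587 of the latter. GENCODE vM21 places the site in an intron of the coding transcripts of Ppara.

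Ppard, the PPAR that is expressed in most tissues, had 486, 95, 119, 59 and 149 mRNA cluster reads, or 10.8, 5.75, 9.15, 3.58 and 5.99 RPM. These lie within a narrower range than those of Ppara, and P7, where Ppara was highest, was the lowest. Its mRNA cluster of most reads, with 175 reads at e12.5 in the CDS of exon 4 (chr17:28295359-28295376), was listed in no other library. The site of miR-122-5p shown above, 105 bases after the stop codon, had 26 reads at e15.5.

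At e12.5, Rxra and Ppard were read mostly in their introns. Of 77 clusters of Rxra, 65 (84.4%, Wilson 95% interval 74.7 to 90.9) were confined to introns, and of 47 clusters of Ppard, 40 (85.1%, 72.3 to 92.6). Over all genes the share was 31.2% at e12.5 and between 18.0% and 18.7% in the later libraries. The reads outside mRNA clusters were 3309 for Rxra and 2634 for Ppard at e12.5, against 726 and 486 in mRNA clusters. At e15.5 neither was read much in introns, with no intronic cluster of Rxra and 1 of Ppard. For Rxra the share was 18.8%, 26.1% and 47.9% in the 3 later libraries. Each of the 2 lists of the e12.5 table listed intron clusters, 27 and 41 for Rxra and 20 and 21 for Ppard, which after joining made 66 and 40, so that few overlapped between the lists.

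Nr1h3, the LXR that controls cholesterol efflux and lipogenesis, was listed with few reads. It had 6 mRNA cluster reads at e12.5, none at e15.5 and e18.5, 32 at P7 and 24 in the adult, and it never reached the 50 reads asked of a gene in the comparisons below. Its mRNA cluster of most reads, with 24 reads in the adult at chr2:91184438-91184463, is in the CDS of its last exon and has matches to miR-24-3p and miR-324-5p. No 3′UTR cluster of it was listed in any library.

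Nr1h4, which lowers bile acid synthesis when bile acids are plentiful, was not listed at e12.5 and e15.5, and had 111 mRNA cluster reads at e18.5, 175 at P7 and 315 in the adult, or 8.53, 10.6 and 12.7 RPM. The 3 values lie close together, and each is far above the 0.111 and 0.303 that 5 reads make at e12.5 and e15.5. No 3′UTR cluster of Nr1h4 was listed in any library, and its mRNA clusters numbered 3, 9 and 6. Its mRNA cluster of most reads, in the CDS of exon 3 at chr10:89483371-89483435, was the only 1 of its 15 loci in all 3 libraries, with 97 reads at e18.5, 17 at P7 and 82 in the adult. In the adult it included the miR-181a-5p match shown above, an 8mer with no mismatch to the seed. The adult cluster holds matches to 22 miRNAs, among them miR-486a-5p, so which miRNA held Ago there is not shown. An intronic cluster of Nr1h4 with an 8mer match to miR-122-5p, also chosen after its values were seen, had 97 reads at e18.5 and 16 at P7 and was not listed in the other libraries.

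Nr0b2, the repressor that FXR switches on, and Nr1i3, which turns on drug-metabolizing enzymes, shared a course. Nr0b2 had 124 mRNA cluster reads at P7 and 225 in the adult, or 7.52 and 9.04 RPM. Nr1i3 had 70 and 127, or 4.24 and 5.10 RPM. Neither had a cluster of any region in the 3 embryonic libraries. The mRNA cluster of Nr0b2 with most reads held 69 reads in the adult in the CDS of exon 2 (chr4:133556185-133556205), and 3 of its 12 loci were listed at both P7 and adult. The mRNA cluster of Nr1i3 with most reads held 35 reads in the adult (chr1:171218651-171218676), annotated as CDS or 3′UTR by transcript, and none of its 10 loci was listed in both.

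Nr5a2, which works with SHP in the control of bile acid synthesis, had 564, 66, 184, 147 and 223 mRNA cluster reads, or 12.6, 4.0, 14.1, 8.91 and 8.96 RPM. The other 4 libraries lay between 8.91 and 14.1, and e15.5 was below them. Its mRNA cluster of most reads, with 134 reads at e12.5, was a 3′UTR cluster at chr1:136845107-136845112 with a match to miR-6915-3p alone, while a CDS cluster in exon 4 was listed at e12.5, P7 and in the adult with 50, 27 and 39 reads. Let-7 matches were listed in a CDS cluster at e15.5 and in the adult, and in a separate CDS cluster at P7.

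Thrb, the main thyroid hormone receptor of the liver, had 121 mRNA cluster reads at e12.5, none at e15.5 and e18.5, 13 at P7 and 58 in the adult, or 2.70, 0.788 and 2.33 RPM where listed. Of the 121 reads, 112 came from 1 3′UTR cluster at chr14:18036150-18036172 that was listed only at e12.5 and has matches to miR-127-5p and miR-99b-3p. Most of its clusters were confined to introns, with 5 of 7 at e12.5, 4 of 4 at e15.5, 14 of 16 at P7 and 7 of 10 in the adult.

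To set these levels against all genes, adult was compared with e12.5 and P7 with e18.5 for every gene with at least 50 mRNA cluster reads in either library, and a change past 2-fold was counted. A gene with no cluster in 1 library was set to 5 reads there. Because 5 is the lowest number in each of the 2 lists of an embryonic table, the folds of such genes are printed as bounds against 5 reads in each list, a choice made after seeing the data that left the counts of calls as they were. The bound covers 1 unlisted cluster per list. In the adult library 5 of the 9 receptor genes compared were past 2-fold higher than at e12.5, against 20.6% of the 10433 genes compared. These were Nr1h4 (at least 56.8-fold higher), Nr0b2 (at least 40.6-fold), Nr1i3 (at least 22.9-fold), Ppara (7.32-fold, log2 2.87) and Rxra (5.4-fold, log2 2.43). Rxrb was past 2-fold lower, 5.84-fold, against 56.1% of genes compared, and Ppard, Nr5a2 and Thrb were within 2-fold, with log2 changes of -0.86, -0.49 and -0.21. The median log2 change was 2.43 over the 9 receptor genes and -1.39 over all genes compared. With reads scaled to mRNA cluster reads the median of all genes was -0.60, with 27.5% higher and 43.9% lower, and the log2 changes of Nr5a2 and Thrb were 0.30 and 0.58. With introns counted Rxra was within 2-fold (log2 0.26) and Ppard was past it (log2 -3.54), and the 2 lists of the e12.5 table differed. Against the first list alone the log2 bounds of Nr1h4, Nr0b2 and Nr1i3 were 5.23, 4.74 and 3.92. Rxra had log2 changes of 1.43 and 3.42 and Ppara of 5.34, a lower bound, and 2.29 against the first and second list, and 3.22 and 3.66 when scaled to mRNA cluster reads. The lists gave opposite calls for other genes: against the first, Ppard, Nr5a2 and Thrb were past 2-fold lower (log2 -2.19, -1.49 and -1.70), and against the second Ppard and Thrb were past 2-fold higher (log2 1.13 and 2.96).

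Between e18.5 and P7, 3 of 8 receptor genes compared were past 2-fold higher, against 24.5% of 8909 genes. They were Nr0b2 (at least 9.78-fold), Nr1i3 (at least 5.52-fold) and Rxra (2.16-fold), and for Rxra the call rested on the 3′UTR cluster with the miR-122-5p match, since without it the log2 change was 0.15 in place of 1.11. Without that cluster the adult against e12.5 change of Rxra was 1.44. Ppard (log2 -1.36) and Rxrb (-1.12) were past 2-fold lower, against 36.3% of genes, and neither passed when reads were scaled to mRNA cluster reads only (log2 -0.80 and -0.56), where the median of all genes was 0.09 with 31.2% higher and 24.9% lower. Against the second list of e18.5 alone Rxrb turned to 0.88 and Ppard was -0.43, and the log2 bounds of Nr0b2 and Nr1i3 were 2.02 and 1.20. Ppara, Nr1h4 and Nr5a2 were within 2-fold, with log2 changes of 0.94, 0.31 and -0.67. Ppara was past 2-fold higher with reads scaled to mRNA cluster reads (log2 1.49) or to the study's library totals, with the first total given for e18.5 (log2 1.40). It was also past 2-fold with all regions (1.3), at least 10 reads (1.1) and the first list (1.03), but not with 3′UTRs only (0.89) or the second list (0.64). Against the second list Nr1h4 was 1.03 and Nr5a2 was 0.42. The median was 0.62 over the 8 and -0.47 over all genes compared.

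**Figure D5:**
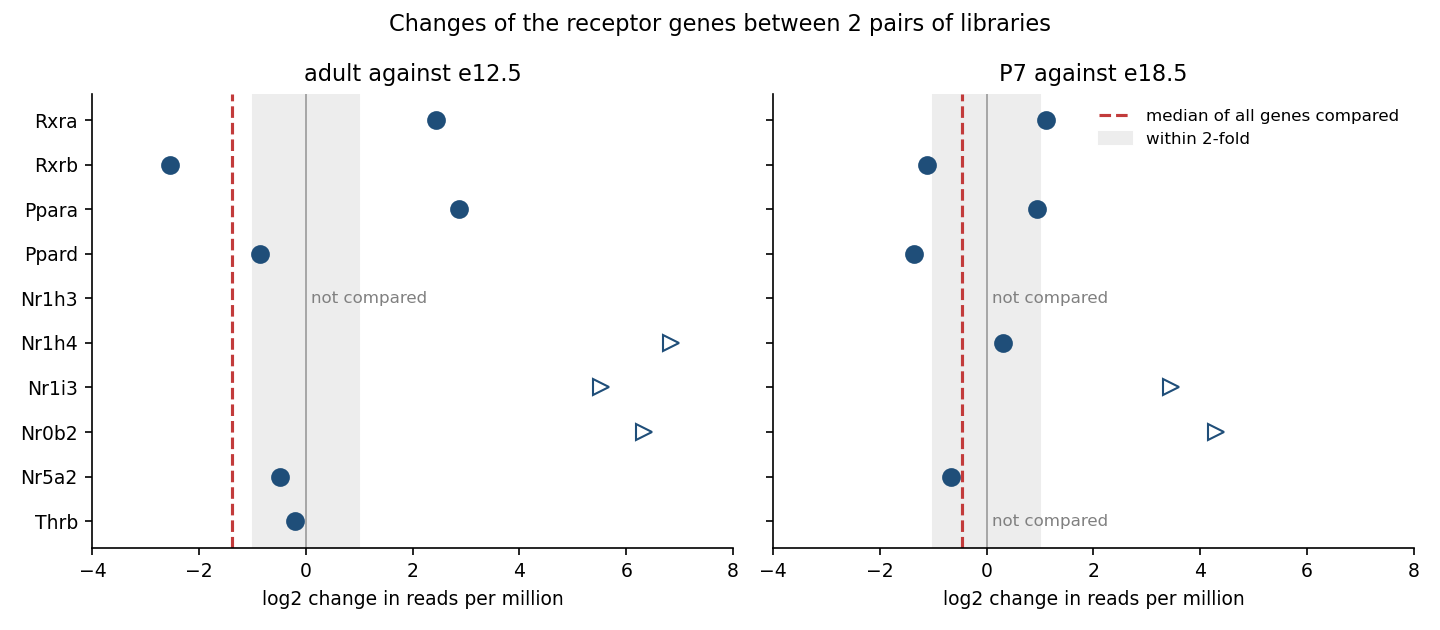
Log2 change of the mRNA cluster RPM of each receptor gene, adult against e12.5 (left) and P7 against e18.5 (right), 1 library each. Open arrowheads are genes with no cluster in the earlier library, drawn against 5 reads in that library as a whole, the grey band is within 2-fold, and the dashed line is the median of all genes compared, -1.39 and -0.47.

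A smaller share of the mRNA clusters of the 10 genes than of all genes lay in the CDS in each of the 5 libraries. In adult liver 39 of 78 (50%, Wilson 95% interval 39.2 to 60.8) were in the CDS, against 72.9% of all mRNA clusters, and 36 (46.2%, 35.5 to 57.1) in a 3′UTR, against 29.7%. The 3′UTR share of all genes lay within the interval at e12.5 (41.7%, against 41.5%), e18.5 and P7, and below it at e15.5. At P7 47.7% (38.7 to 57) were in the CDS against 65.5%, and 13 of 111 (11.7%, 6.97 to 19) in a 5′UTR against 5.2%. At e12.5, 47.9% (34.5 to 61.7) were in the CDS against 61.3%, which is within the interval, while in the other 4 libraries the share of all genes lay above it. Region lengths of the 10 genes were not compared with those of all genes.

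The median conservation score of distinct 3′UTR sites of the 10 genes was 0.037, 0.001, 0.017, 0.002 and 0.002, against 0.298, 0.52, 0.348, 0.184 and 0.266 over all genes. Without Rxra the medians were 0.165, 0.001, 0.028, 0.004 and 0.022, all below those of all genes. The genes differed among themselves: in the adult the median was 0.001 for 55 sites of Rxra and 12 of Ppara, and 0.643 for 17 of Nr1i3, some of which are coding in another transcript, and at e18.5 it was 0.933 for 10 of Nr5a2. Their CDS sites had medians of 0.835 to 0.997. Neighbouring sites share bases and a score, so the sites are not independent.

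Abundant miRNAs had matches in a minority of the mRNA clusters of the 10 genes. Clusters with a match to 1 of the 20 highest miRNAs of the library numbered 5, 4, 5, 13 and 10, which is 10.4%, 33.3%, 12.8%, 11.7% and 12.8% of the mRNA clusters. Over all genes the shares were 17.9%, 19.5%, 19.5%, 19% and 23.1%. The Wilson 95% interval of the receptors in adult liver, 7.12 to 22, lay below the share of all genes, but with at least 7 matched bases it was 5.29 to 19 and held the 14.2% of all genes. At e15.5, where 4 of 12 clusters counted, it ran from 13.8 to 60.9. Besides miR-122-5p in Rxra and Ppard, they included let-7 in Rxrb at e12.5 and in Nr5a2, miR-142a-3p in Ppard at e12.5, miR-16-5p in Rxra at P7 and in the adult, miR-27a-3p and miR-27b-3p in Rxra and Ppara in the adult, and miR-192-5p in Ppara at P7 and in the adult. Clusters with a miR-122-5p match made up 2.08%, 16.7%, 7.69%, 1.8% and 3.85% of the mRNA clusters of the 10 genes, against 1.15%, 1.52%, 2.31%, 2.52% and 3.32% of all mRNA clusters. They were 2 of 12 at e15.5 (Wilson 95% interval 4.7 to 44.8) and 3 of 39 at e18.5 (2.65 to 20.3), where the share of all genes lay below the interval, and in the other 3 libraries it lay within it.

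The loci of the 10 genes recurred about as often as those of all genes. Of 202 mRNA loci, 145 (71.8%) were listed in 1 library, 36 in 2, 17 in 3, 3 in 4 and 1 in all 5, and over all genes 71.6% of 209925 loci were listed in 1 library. Between P7 and the adult, the libraries with Ago1 antibodies added, 31 loci were shared, which is 28.4% of the 109 at P7 and 40.3% of the 77 in the adult, against 24.3% and 36% over all genes, and 15 of the 31 were in Rxra and 7 in Ppara.

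The genes around the receptors were described by 3 lists that hold none of the 10. Of 24 other nuclear receptors, 18 were compared between e12.5 and the adult, and 8 were past 2-fold higher and 7 lower, against 20.6% higher and 56.1% lower over all genes compared, with a median log2 change of 0.57 against -1.39. Esr1, the estrogen receptor, was at least 39.5-fold higher (0 and 219 reads), and Nr1d1, a repressor of the circadian clock, was 16.4-fold higher (23 and 209 reads). Thra, the other thyroid hormone receptor, was at least 54.9-fold lower (495 and 0 reads), and Nr2c2 was 25.6-fold lower (970 and 21 reads). So Thra was not listed in the adult, where Thrb had 58 reads, and at e12.5 both were listed, with 495 and 121.

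Of 17 coregulators, which receptors recruit to switch genes on or off, 16 were compared, and 1 was past 2-fold higher and 8 lower, where 56.1% of all genes compared were lower, with a median of -1.21 that is close to that of all genes. The 1 higher gene was Ppargc1b, a coactivator of mitochondrial genes (4.37-fold). The lowest were Tbl1x (27.1-fold lower, 244 and 5 reads) and Med1, a subunit of the Mediator complex that binds receptors (5.19-fold lower). Of 24 textbook target genes of the receptors, 23 were compared, and 19 were past 2-fold higher, against 20.6% of all genes compared, and 1 lower, with a median of 5.24 (5.13 with 5 reads in each list). Cyp3a11, a drug-metabolizing cytochrome P450 that CAR and PXR switch on, was at least 1230-fold higher (0 and 6819 reads) and Cyp4a14, a PPARα target, at least 435-fold (0 and 2414 reads). Pdk4, a brake on glucose oxidation, was 4.53-fold lower (147 and 18 reads), and Mylip, an LXR target that degrades the LDL receptor, was within 2-fold (log2 -0.88). Between e18.5 and P7, 6 of 15 other nuclear receptors compared were past 2-fold higher and 3 lower (median -0.37), 3 of 17 coregulators higher and 1 lower (median -0.10), and 10 of 22 targets higher and 3 lower (median 0.59), against 24.5% higher, 36.3% lower and a median of -0.47 over all genes. Many of these targets are expressed mainly in hepatocytes, whose markers were higher in the older libraries, as given above, and the part of this in the values was not tested.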

How the data were processed

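Tables of Ago HITS-CLIP from 5 stages of mouse liver were used, grouped by the sample labels. The authors clipped reads with the FASTX-Toolkit, mapped them with Bowtie to mm10 and miRBase precursors, joined overlapping reads into clusters, annotated these with UCSC refGene and Ensembl, and searched them for miRNA seed matches. The submitters' processing notes list mm9 as well. Tool versions are not given in the sources used here. The deposited read number of a cluster is an unscaled signal whose header differs at e12.5 from the other stages, and it was read as 1 measure. The deposited conservation is a fraction. The deposited free energy is a score that was not used. A number within each interaction name, unexplained in the sources, served as the miRNA's read count.

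The 3 embryonic tables each hold 2 lists. Their reads were added, and their overlapping clusters on 1 strand were joined. Because only clusters with a seed match are listed, the sums are not sequencing depth. Exons came from GENCODE and sequences from GRCm38 and RefSeq. Python 3.11.15, numpy 2.4.6, pandas 2.3.3, samtools 1.23.1 and matplotlib 3.10.9 were used, and the parsing and fold counts were tested on simulated data. The text names all 10 genes, the mRNA cluster of most reads in each, 3′UTR sites of the 20 highest miRNAs in at least 3 libraries, 3′UTR sites of miR-122-5p, and the 2 highest and 2 lowest changes of each list between e12.5 and adult. These changes were ranked with a gene without a cluster set to 5 reads in the library as a whole. With 5 reads in each list, Cyp8b1 (691-fold higher) would rank above Cyp4a14. The members and the lists were chosen with earlier results of these data known. Other settings tried were at least 10 reads, entries of a lone gene, each list alone, the study's library totals, mRNA cluster reads as the base, all regions, 3′UTRs only, 7 matched bases and the 50 highest miRNAs. Some items that the naming rule selects are not reported here.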

Additional observations from a re-analysis of the deposited data

How the results depend on the processing

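With 1 labelled library per stage the spread between replicates could not be measured, and leaving out a library was not possible. No paired analysis was possible because each stage has 1 library and no replicate numbers are shared. The log2 change of the summed reads of the 10 genes from e12.5 to adult was 1.36. It was 1.67 with the study's library totals, 2.15 per mRNA cluster reads, 0.17 with all regions, 0.38 and 2.32 against the first and second list of e12.5, and 0.85 without the Rxra 3′UTR cluster, an alternative chosen after seeing the data. From e18.5 to P7 it was 0.82, and 1.29 and 1.37 with those scalings, 0.97 with 3′UTRs only, 0.74 and 1.15 against the first and second list, and 0.19 without the Rxra cluster. The 5 genes past 2-fold higher from e12.5 to adult became 3 with 3′UTRs only, and the 1 lower gene became 2 with all regions, 2 with 3′UTRs only and 4 (Rxrb, Ppard, Nr5a2 and Thrb) against the first list. From e18.5 to P7 the 3 higher genes became 5 with all regions and 1 with 3′UTRs only, and the 2 lower genes became 0 with either other scaling and 0 against the second list, where the change of Rxrb turned from -1.12 to 0.88. With 3′UTRs only, Nr1h4 and Nr0b2 did not reach 50 reads at e12.5 or in the adult and were not compared. Nr0b2 and Nr1i3 did not reach 50 reads at e18.5 or P7 and were not compared there. The cause of the other differences was not tested. Clusters of the 10 genes fell from 169 to 67 and 109 in the lists of e12.5, from 20 to 2 in the first list of e15.5, and from 52 to 27 and 28 in the lists of e18.5, where 32 had at least 10 reads; a list alone holds fewer clusters by construction. Clusters with a match to an abundant miRNA became 9, 10, 26 and 16 at e12.5, e18.5, P7 and in the adult with the 50 highest miRNAs, and 3 at e18.5 with 7 matched bases. No entry of the 10 genes names another gene, so keeping only entries of a lone gene could not change the 28 results. The study names a second replicate of e18.5 with its own total. The total of the first was used, and whether the lists of the embryonic tables are replicates is not stated. Setting a gene with no cluster to 5 reads in each list, an alternative chosen after seeing the data, kept the counts of calls and lowered 5 log2 changes by 1.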
